A study of Mus musculus with 6 samples.

Results

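DNA damage checkpoint and repair genes were followed in 344SQ mouse lung cancer samples with and without added miR-34a. The 39 genes were chosen by name, as members of the main repair pathways, with earlier results of these data known. Each is represented by its brightest probe set among those annotated to it alone. Of the 39, 36 were measured, out of 12393 genes in the whole table. No such probe set was found for Xrcc2, Fancd2 or Lig4, which are not analysed here.

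The miR-34a group held 3 arrays of 344SQ samples in which miR-34a was inducibly expressed, and the vector group held 3 arrays of 344SQ samples carrying the control vector. Both groups share the parent line, a metastatic line with high Zeb1 that the labels call KP. What was extracted is not settled by the labels, since the miR-34a titles and the design text name primary tumours of injected mice while the growth protocol and the sample source name a cultured line. The labels used here state neither the inducing agent, the time of induction nor the number of mice. They also do not say whether replicates were separate mice or cultures, and the p-values then describe only how much these arrays varied, which may be technical.

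Cells carry a separate repair route for each kind of DNA damage. The kinases Atm and Atr sense breaks and stalled forks and signal through Chek2 and Chek1, homologous recombination and end joining repair broken chromosomes, the Fanconi anaemia proteins clear crosslinks, and the excision and mismatch pathways replace damaged or mispaired bases. Recombination and mismatch correction work mainly while DNA is being copied, and many of their genes are transcribed most in dividing cells. The microRNA miR-34a is transcribed under the control of p53, and its known targets include regulators of the cell cycle.

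The added microRNA is shown first, since its expression is what the groups were made to differ in. Its mature strand in RefSeq (GRCm38.p6, chr4:150068473-150068494, plus strand) reads as follows, 5′ to 3′, with the seed, bases 2 to 8, in capitals.
mmu-miR-34a-5p: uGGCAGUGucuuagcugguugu

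Array medians of the deposited values, which are linear intensities, ran from 466.7 to 484.2. With 3 arrays per group, that number sets the precision of all that follows. Vector 1 stood apart from its group: across all genes its Pearson correlation with vector 2 and vector 3 was 0.9686 and 0.9722, where that between vector 2 and vector 3 was 0.993 and those among miR-34a arrays ran from 0.9918 to 0.9955. Among 5 epithelial markers, the keratin genes Krt8, Krt18 and Krt19 were bright in every array, with Krt8 between 21273 and 22834 in miR-34a arrays and between 19705 and 22489 in vector arrays. Epcam, a surface marker on the same list, read 1001, 1142 and 951 in miR-34a arrays and 305, 977 and 1463 in vector arrays, so that in vector 1 it lay below the array's median of 466.8. Some genes on the host cell marker lists were bright too, such as Col1a2, Ctss and C1qa, at the 98, 92.7 and 91.1 percentile of all genes by level. For dim markers, readings without detection calls do not show which were above background. The 3 B cell genes lay between the 11.7 and 15.8 percentile of all genes by level. In bulk samples, fewer cells of a type and less RNA per cell cannot be told apart.

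Repair genes were lower in miR-34a arrays in 9 cases and higher in 0 of 36. The lower genes were Chek1, Fancl, Nbn, Brca1, Exo1, Ung, Parp2, Brca2 and Mre11a, by 1.28-fold to 2.37-fold, and Chek1 alone among the members changed by at least 2-fold. They came from 6 of the pathways, and 0 members of end joining, nucleotide excision repair or translesion synthesis passed. The test was limma on log2(intensity + 16), with Benjamini-Hochberg adjustment over all 12393 genes and a threshold of 0.05. By the same rule 5.25% of all genes were lower and 6.50% were higher, so the members' share lower, 25%, lay above the background. Because the list was chosen with earlier results of these data known, that share is a description and not a test. At an unadjusted p under 0.05, 17 members were lower and 3 higher, where 11.3% and 17.0% of all genes were.

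The count of lower members rested on single arrays. It was 1 when miR-34a 1 or miR-34a 3 was left out, 5 for miR-34a 2, 4 for vector 2, 5 for vector 3 and 10 for vector 1. The background share of lower genes moved with it, to 1.08% with miR-34a 1 left out, 1.03% with miR-34a 3, 2.94% with miR-34a 2, 4.20% with vector 2, 2.56% with vector 3 and 7.15% with vector 1. The members' median difference moved little: it was -0.20 in log2 over all arrays and lay between -0.23 and -0.16 in the fits on 5 arrays, beside a median of 0.024 for all genes. Single members could move more in these fits, such as Ung from -0.58 to -0.37 and Xrcc4 from -0.44 to -0.19. Of the 36 members, 28 had a difference below 0, beside 5658 of all 12393 genes. The arrays of the 2 groups did not overlap in 18 members that were lower and 2 that were higher. The background for this was 14.0% and 20.8% of all genes.

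**Figure D1:**
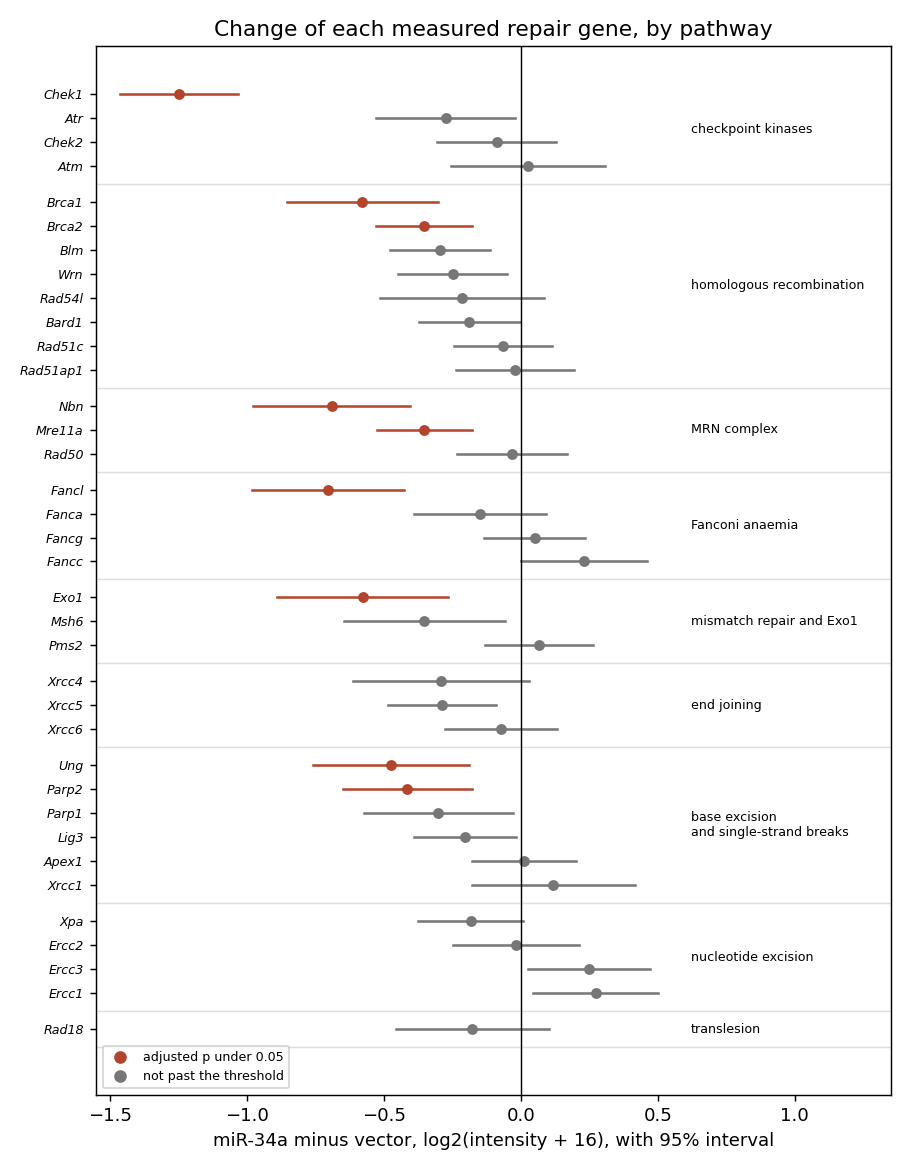
Difference between miR-34a and vector arrays in log2(intensity + 16) for each of the 36 measured genes, grouped by pathway, with points for the fitted value and lines for its 95% interval from limma (3 arrays per group). Red points passed an adjusted p under 0.05: the 9 of them all lie below 0, with Chek1 farthest at -1.25, and the nucleotide excision genes Ercc1 and Ercc3 lie highest, at 0.27 and 0.25, without passing.

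Chek1 encodes the kinase that holds the cell cycle when replication forks stall. It read 251, 225 and 230 in the miR-34a arrays, against 595, 617 and 530 in the vector arrays. Every miR-34a array lay below the lowest vector array, and the spread within groups was small beside the gap. In log2 units the level was 7.97 ± 0.0784 in miR-34a arrays and 9.22 ± 0.112 in vector arrays (SD, n = 3 each), a difference of -1.25 ± 0.0912 (SE; limma adjusted p = 0.00201). Chek1 passed without any 1 array, with differences from -1.31 to -1.20 and adjusted p from 0.00104 to 0.0217. Its level lay at the 37.3 percentile of all genes, so it was not among the genes tested when the lower 40% by level were left out.

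The kinase upstream of it, Atr, read 567, 648 and 505 in miR-34a arrays and 655, 723 and 704 in vector arrays. The groups did not overlap, but the lowest vector array lay close to miR-34a 2, and the difference of -0.27 did not pass (95% interval -0.53 to -0.02, limma adjusted p = 0.149). Atm, the kinase that responds to chromosome breaks, read 235, 289 and 243 in miR-34a arrays and 279, 219 and 255 in vector arrays. These values overlapped throughout, and the difference was 0.03 with an interval from -0.26 to 0.31. Its effector Chek2 had a difference of -0.09, with an interval from -0.30 to 0.13. Of the 4 checkpoint kinases, Chek1 passed and the other 3 did not, and whether their changes differ from that of Chek1 was not tested.

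In homologous recombination 2 of 8 measured genes fell, Brca1 and Brca2, and all 8 had differences below 0. Brca1, an E3 ubiquitin ligase subunit that steers breaks into recombination, read 364, 398 and 304 in miR-34a arrays and 557, 564 and 489 in vector arrays. The groups did not overlap, and the highest miR-34a array was well below the lowest vector array. The difference was -0.58 ± 0.118 (SE; limma adjusted p = 0.0253). Its call was lost when miR-34a 1 (adjusted p = 0.0902), miR-34a 3 (-0.48, adjusted p = 0.0902) or vector 2 (adjusted p = 0.0582) was left out. Bard1, the partner of Brca1 in the same ligase, was dim, at the 12.5 percentile of all genes by level. It read 103, 113 and 113 in miR-34a arrays and 130, 129 and 121 in vector arrays, and its difference of -0.19 did not pass (limma adjusted p = 0.170).

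Brca2 is needed for the strand exchange step of recombination. It read 440, 452 and 442 in miR-34a arrays and 546, 590 and 584 in vector arrays, so the groups were far apart relative to their spread while the difference itself was modest. That difference was -0.35 ± 0.0745 (SE; limma adjusted p = 0.0276). The call held without vector 1 and was lost without each of the other 5 arrays, with differences from -0.37 to -0.33 and adjusted p from 0.0615 to 0.113. Blm and Wrn, RecQ helicases that unwind recombination intermediates, had differences of -0.30 (adjusted p = 0.0517) and -0.25 (adjusted p = 0.106), and in both the groups did not overlap. Rad54l, a motor protein that helps a DNA strand invade its partner, differed by -0.21, and Rad51c, which acts in the same pathway, by -0.07. Rad51ap1, which promotes strand invasion, read 475, 550 and 514 in miR-34a arrays and 547, 530 and 484 in vector arrays. Its groups overlapped, with a difference of -0.02 and an interval from -0.23 to 0.19.

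The MRN complex, which binds broken ends and activates Atm, fell in 2 of its 3 genes. Nbn, its signalling subunit, read 230, 291 and 219 in miR-34a arrays and 389, 388 and 440 in vector arrays. All miR-34a values were below all vector values. The difference was -0.69 ± 0.122 (SE; limma adjusted p = 0.0174), and the call was lost without miR-34a 1, miR-34a 3 or vector 3 (adjusted p = 0.0795, 0.0824 and 0.0592). Mre11a, the nuclease subunit, read 642, 673 and 630 in miR-34a arrays and 839, 814 and 844 in vector arrays. The difference was -0.35 ± 0.0735 (SE; limma adjusted p = 0.0269), and the call was lost without any 1 of miR-34a 1, miR-34a 2, miR-34a 3 and vector 3, with adjusted p from 0.0597 to 0.116. Rad50, the ATPase that tethers the ends, did not follow its partners past the threshold. It read 605, 700 and 674 in miR-34a arrays and 651, 687 and 684 in vector arrays, a difference of -0.03 with an interval from -0.23 to 0.17. A second, dimmer Rad50 probe set differed by -0.32, without overlap of the groups, and did not pass either (limma adjusted p = 0.138 over all probe sets).

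Among the 4 measured Fanconi anaemia genes Fancl fell. It encodes the ubiquitin ligase of the core complex, the subunit that marks Fancd2, and it read 415, 437 and 449 in miR-34a arrays and 847, 686 and 633 in vector arrays. Its miR-34a values were tightly grouped, and vector 1 was the highest of the well separated vector arrays. The difference was -0.71 ± 0.118 (SE; limma adjusted p = 0.0148). It was -0.59 without vector 1, and the call was lost without miR-34a 1 (adjusted p = 0.0726) or miR-34a 3 (adjusted p = 0.0694).

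The other core complex genes did not pass. Fancc read 528, 561 and 599 in miR-34a arrays and 531, 455 and 448 in vector arrays, a difference of 0.23 (limma adjusted p = 0.175). Of the miR-34a arrays only miR-34a 1 lay within the vector range. Fancg differed by 0.05, with an interval from -0.13 to 0.23, and Fanca by -0.15, with an interval from -0.39 to 0.09.

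Of the mismatch repair genes, Exo1, the exonuclease that removes the mispaired strand and also resects breaks, fell. It read 175, 206 and 177 in miR-34a arrays and 294, 331 and 237 in vector arrays. The groups did not overlap, although vector 3 lay nearer to the miR-34a arrays than the other vector arrays did. The difference was -0.58 ± 0.132 (SE; limma adjusted p = 0.0358). The call held without vector 1 or vector 3 and was lost without each of the other 4 arrays, with adjusted p from 0.0645 to 0.138. Msh6, which recognises the mismatch, read 701, 880 and 790 in miR-34a arrays and 1006, 1145 and 893 in vector arrays, and its difference of -0.35 did not pass (limma adjusted p = 0.116). Pms2, which nicks the strand to be removed, read 432, 470 and 443 in miR-34a arrays and 455, 428 and 400 in vector arrays, overlapping values with a difference of 0.07.

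**Figure D2:**
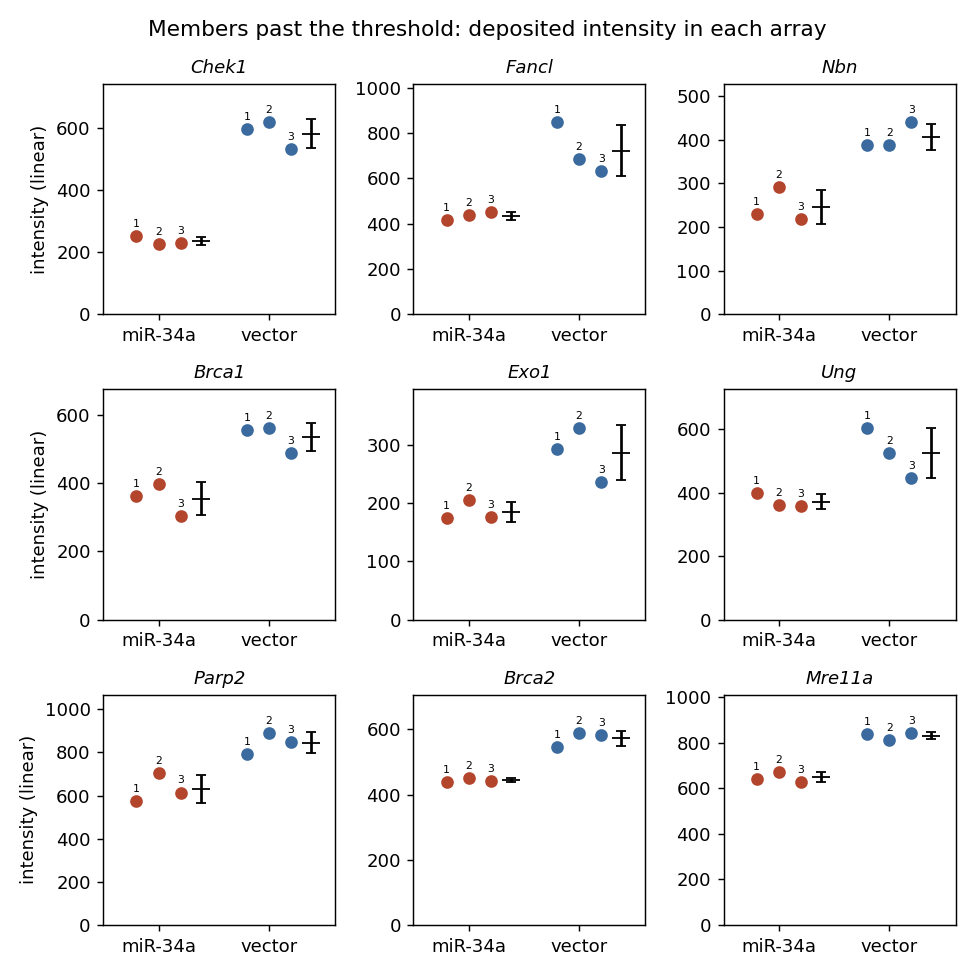
Deposited linear intensity in each array for the 9 genes past the threshold, miR-34a arrays in red at the left and vector arrays in blue at the right of each panel, with the replicate number above each point and the mean ± SD (n = 3) as a black bar. In each panel the highest miR-34a array lies below the lowest vector array, and the gap is widest in Chek1, where miR-34a arrays read 225 to 251 and vector arrays 530 to 617.

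In non-homologous end joining 0 of 3 measured genes passed. Xrcc5 and Xrcc6 encode the subunits of Ku, the ring that caps broken ends. Xrcc5 read 854, 954 and 879 in miR-34a arrays and 1134, 1123 and 1035 in vector arrays, without overlap, and its difference was -0.29 (95% interval -0.49 to -0.09, limma adjusted p = 0.0700). Xrcc6 read 685, 772 and 754 in miR-34a arrays and 825, 767 and 735 in vector arrays, with overlap and a difference of -0.07. Xrcc4, the scaffold of the ligation step, read 352, 357 and 329 in miR-34a arrays and 344, 457 and 495 in vector arrays. Vector 1 was low for this gene, at the level of the miR-34a arrays, and the difference of -0.29 (limma adjusted p = 0.214) was -0.44 without vector 1, with an adjusted p of 0.0148.

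Base excision and single-strand break repair held 2 lower genes of 6. Ung, the glycosylase that cuts uracil out of DNA, read 399, 362 and 357 in miR-34a arrays and 606, 527 and 448 in vector arrays. The groups were separate, with vector 3 closest to the miR-34a arrays. The difference was -0.47 ± 0.121 (SE; limma adjusted p = 0.0480). This call lay at the threshold: it held without vector 1 or vector 3, was lost without each of the other 4 arrays (adjusted p from 0.0943 to 0.167), and was also lost with quantile normalization (adjusted p = 0.0543), with median centring (0.0529) and with a pseudocount of 1 (0.0518).

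Parp2, a poly(ADP-ribose) polymerase that signals strand breaks, read 575, 704 and 614 in miR-34a arrays and 795, 891 and 849 in vector arrays. The difference was -0.42 ± 0.0999 (SE; limma adjusted p = 0.0405), with calls kept without vector 1 or miR-34a 2 and lost without each of the other 4 arrays (adjusted p from 0.0911 to 0.148). Parp1, its more abundant relative, read 1008, 1228 and 1227 in miR-34a arrays and 1590, 1352 and 1333 in vector arrays. These groups did not overlap either, and the difference of -0.30 did not pass (limma adjusted p = 0.142). Lig3, the ligase that seals single-strand breaks, differed by -0.20 (adjusted p = 0.145). Its scaffold partner Xrcc1 read 838, 1122 and 1001 in miR-34a arrays and 952, 944 and 814 in vector arrays, overlapping values with a difference of 0.12. Apex1, the endonuclease that opens the abasic site, was the brightest member, at the 92.6 percentile of all genes, and read 4069, 4542 and 4472 in miR-34a arrays and 4458, 4310 and 4207 in vector arrays. Its difference was 0.01, with an interval from -0.18 to 0.20.

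Nucleotide excision repair, which removes bulky lesions, had 0 of 4 genes past the threshold and was the pathway with the highest median difference, 0.12. Ercc1, the partner of the nuclease that cuts on the 5′ side of a lesion, read 1996, 2201 and 2057 in miR-34a arrays and 1553, 1745 and 1881 in vector arrays. Ercc3, a helicase of the factor TFIIH, read 1141, 1312 and 1104 in miR-34a arrays and 1051, 954 and 976 in vector arrays. These were the 2 members in which every miR-34a array lay above every vector array, with differences of 0.27 (95% interval 0.05 to 0.50, limma adjusted p = 0.116) and 0.25 (0.02 to 0.47, adjusted p = 0.140). Ercc2, the other TFIIH helicase, differed by -0.02, with an interval from -0.25 to 0.21. Xpa, which verifies the damage, read 438, 423 and 460 in miR-34a arrays and 528, 472 and 508 in vector arrays, and its difference of -0.18 did not pass (limma adjusted p = 0.195). Rad18, the ubiquitin ligase that calls in translesion polymerases at stalled forks, read 290, 373 and 301 in miR-34a arrays and 387, 330 and 375 in vector arrays. Its groups overlapped, with a difference of -0.18.

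Most members lay in the lower range of the array: 22 of 36 were below the median level of all genes, among them 7 of the 9 lower members. Levels of different probe sets do not rank transcripts. For 17 members several probe sets were annotated, 48 in all, and they did not always give the same difference. In a fit over all probe sets, 12 members had at least 1 probe set lower and 0 had 1 higher. This rule gives a gene with several probe sets more chances to pass. The share of all genes that meet it was not counted, so the 12 have no background beside them. Of the 12 members, the 3 whose brightest probe set did not pass were Rad51ap1, Wrn and Rad18. The Rad51ap1 probe set used differed by -0.02 and another by -0.08, while the other 2 differed by -0.56 (limma adjusted p = 0.0359) and -0.63 (adjusted p = 0.0280). A second Rad18 probe set differed by -0.60 (adjusted p = 0.0328). For Wrn, the other probe sets differed by -0.52 (adjusted p = 0.0206) and 0.01. In Chek1 a second probe set differed by -1.60, more than the one used, and the other 2 by -0.16 and -0.09. The 3 further probe sets of Brca1 differed by -0.71, -0.46 and -0.18, and the second of Exo1 by -0.55. A second Rad51c probe set differed by -0.41, against -0.07 in the one used, and did not pass (limma adjusted p = 0.104). In 7 of the 17 members the probe sets had opposite signs, among them Fancc, with 0.23 and -0.18, and Xpa, with 0.18 and -0.18 at the ends. Which transcript forms these probe sets read was not tested.

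**Figure D3:**
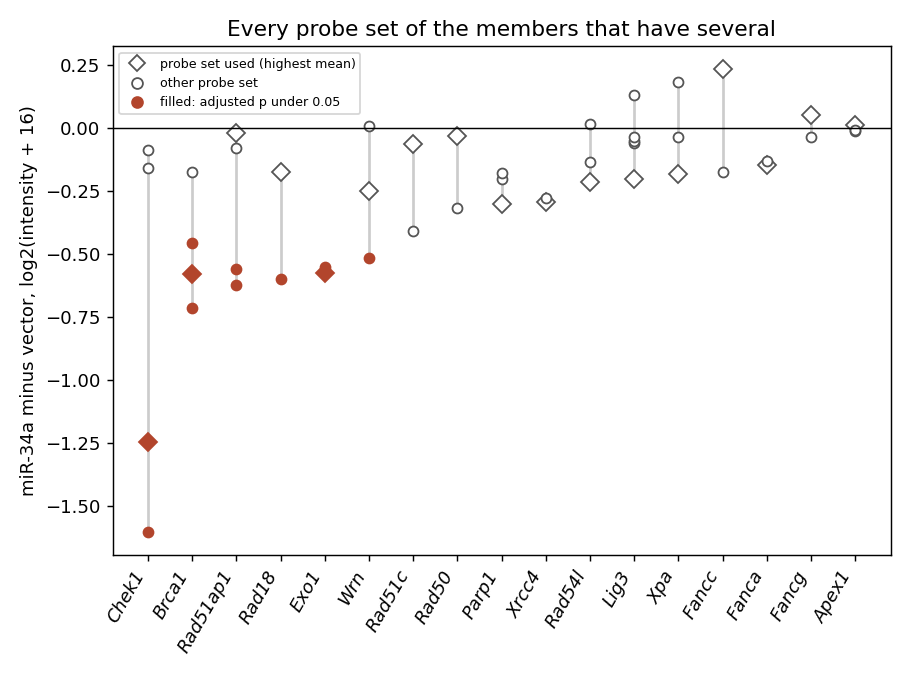
Difference between miR-34a and vector arrays in log2(intensity + 16) for each of the 48 probe sets of the 17 genes with several, 1 column per gene, with a diamond for the probe set used and circles for the others. Filled symbols passed an adjusted p under 0.05 over all probe sets. Chek1 spreads from -1.60 to -0.09, and in Rad51ap1 and Rad18 filled circles lie well below an open diamond.

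Promoter sequence was compared for the members, since several fell together. Windows from 250 bases before to 50 bases after the transcript start (RefSeq, GRCm38.p6) were matched for 31 of the 36 members. Those of Chek1, Fancl and Brca1 are printed 5′ to 3′ on the coding strand, being the lower members with the largest differences that had an entry; Nbn and Exo1 had none. The Chek1 window lies at chr9:36726609-36726908 on the minus strand, the Fancl window at chr11:26386834-26387133 on the plus strand and the Brca1 window at chr11:101551906-101552205 on the minus strand. Capitals mark any match, on either strand, to TTTNNCGC, a loose form of the E2F site, to CCAAT, the box bound by NF-Y, to TTTGAA, the core of the cell cycle homology region, or to GGCGGGAA, another form of the E2F site. The last was added after the Chek1 window had been read, and it can overlap a match to the first.
Chek1: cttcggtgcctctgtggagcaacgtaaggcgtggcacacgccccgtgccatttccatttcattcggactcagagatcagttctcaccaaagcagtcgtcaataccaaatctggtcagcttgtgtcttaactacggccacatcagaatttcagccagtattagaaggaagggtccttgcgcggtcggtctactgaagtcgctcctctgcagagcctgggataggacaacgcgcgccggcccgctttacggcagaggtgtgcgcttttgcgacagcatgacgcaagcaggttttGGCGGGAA
Fancl: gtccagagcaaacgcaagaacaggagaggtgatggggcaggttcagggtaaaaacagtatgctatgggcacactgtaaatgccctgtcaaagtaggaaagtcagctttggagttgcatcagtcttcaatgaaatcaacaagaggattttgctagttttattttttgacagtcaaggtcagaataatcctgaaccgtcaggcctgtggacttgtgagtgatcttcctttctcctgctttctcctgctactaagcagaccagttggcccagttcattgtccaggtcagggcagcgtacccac
Brca1: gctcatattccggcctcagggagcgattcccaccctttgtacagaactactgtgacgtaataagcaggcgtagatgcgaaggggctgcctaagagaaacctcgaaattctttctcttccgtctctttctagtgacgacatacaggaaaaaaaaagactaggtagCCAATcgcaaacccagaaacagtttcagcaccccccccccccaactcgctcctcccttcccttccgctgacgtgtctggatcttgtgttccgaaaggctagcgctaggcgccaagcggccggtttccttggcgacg

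The Chek1 window held GGCGGGAA at its end, beginning 43 bases after the start, the Brca1 window held CCAAT 86 bases before the start, and the Fancl window held none of the 4 letter strings. TTTNNCGC was found in 7 of the 31 members' promoters (22.6%), 1 of them the lower gene Brca2 and the other 6 not past the threshold, namely Bard1, Chek2, Fancg, Rad51c, Xrcc6 and Msh6. Of all 32851 promoter windows, 5.17% held it, and of the 9887 tested genes with a window 8.75% did. Shares of genes count a match in any window of the gene, so they are not the same measure as shares of windows. CCAAT stood in 17 of 31 members' promoters (54.8%), against 37.4% of all windows and 42.3% of tested genes with a window. TTTGAA stood in 1 of 31 (3.23%), that of Bard1, against 17.9% and 15.4%. GGCGGGAA stood in 4 of 31 (12.9%), 1 of them the Chek1 window it was taken from. It stood in 2.19% of all windows, 3.97% of tested genes with a window and 12.1% of cell division genes with a window. Among the 33 cell division genes with a window, TTTNNCGC was found in 30.3%, CCAAT in 78.8% and TTTGAA in 45.5%. A match is only a run of letters. Among the lower members with a window, 1 of 7 held TTTNNCGC and 2 of 7 held CCAAT. Of all 541 tested lower genes with a window, 15.2% and 45.8% did. Among the members that did not pass, 6 of 24 held TTTNNCGC and 15 of 24 held CCAAT. GGCGGGAA was held by 1 of 7 lower members, Chek1, and by 3 of 24 that did not pass.

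The wider set of damage response genes was read from a list of 131 others, of which 100 were measured. Of these, 15 (15%) were lower and 6 (6%) higher, beside 5.25% and 6.50% of all genes, so the share higher was not above the background. The median difference was -0.08, beside 0.024 for all genes. The lower ones included Rpa3, a subunit of the protein that coats single-stranded DNA, which read 1068, 918 and 1256 in miR-34a arrays and 3005, 1991 and 2155 in vector arrays, a difference of -1.12 ± 0.180 (SE; limma adjusted p = 0.0137). The chromatin remodeller gene Hells fell by 1.07, Fignl1, an ATPase gene of the recombination pathway, by 0.81 and the translesion polymerase gene Rev3l by 0.67. Other probe sets of Fignl1 and Rev3l differed by -0.01 and by 0.07 and 0.08, and Rev3l did not pass with the mean of its probe sets (-0.17). Of the 6 higher genes the largest difference was that of Parp3, a polymerase of the Parp family, which read 544, 414 and 468 in miR-34a arrays and 173, 299 and 278 in vector arrays, a difference of 0.91 ± 0.205 (SE; limma adjusted p = 0.0332). The stress kinase gene Mapkapk2 rose by 0.68, the nucleotide excision repair gene Ddb1 by 0.57 and the alkylation glycosylase gene Mpg by 0.47. A second Mpg probe set differed by 0.25 and did not pass.

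By pathway, in recombination 5 of 21 were lower and 1 higher, in checkpoint signalling 3 of 15 and 1, and in the Fanconi pathway 2 of 7 and 0. In nucleotide excision repair 1 of 14 was lower and 2 were higher, and in base excision repair 0 of 12 and 2. Mismatch repair had 2 lower of 11, end joining 1 of 9 and translesion and direct reversal 1 of 11, with 0 higher in each. The median difference ran from -0.21 in translesion and direct reversal, through -0.14 in checkpoint signalling and -0.12 in recombination, to 0.10 in base excision and 0.15 in nucleotide excision repair. Whether the pathways differ was not tested. Leaving out single arrays moved the counts of the whole list, with 3 lower and 0 higher when miR-34a 3 was left out, 3 and 2 for miR-34a 1, 8 and 3 for miR-34a 2, 5 and 3 for vector 3, 12 and 6 for vector 2 and 21 and 6 for vector 1. Hells kept its call without any 1 array. Rpa3 lost it without miR-34a 1 (adjusted p = 0.0654), Fignl1, Mapkapk2 and Ddb1 without miR-34a 3 (adjusted p = 0.0513, 0.0524 and 0.0569), Mpg without miR-34a 1, miR-34a 3 or vector 3 (adjusted p from 0.0550 to 0.0831), and Rev3l and Parp3 without any 1 of vector 3 and the miR-34a arrays (adjusted p from 0.0517 to 0.123).

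Genes of cell division were also lower in miR-34a arrays. Of a list of 39 measured genes of replication and mitosis, 35 were lower and 0 higher, with a median difference of -0.68. Their summed intensity was 54581 to 57978 in miR-34a arrays and 83397 to 90942 in vector arrays. The proliferation marker gene Mki67 read 1821, 1574 and 1344 in miR-34a arrays and 4067, 4154 and 3411 in vector arrays, a difference of -1.29 ± 0.135 (SE; limma adjusted p = 0.0054). The topoisomerase gene Top2a fell by 0.63 and the helicase gene Mcm5 by 0.69. A second Top2a probe set differed by -0.08. The replication clamp gene Pcna, which is counted with the other repair genes under mismatch repair and not among these 39, fell by 0.44. Of these 4 genes Mki67 kept its call without any 1 array, Mcm5 lost it without miR-34a 1 or miR-34a 3, Top2a without miR-34a 1, miR-34a 3, vector 2 or vector 3 and Pcna without any miR-34a array or vector 3 (adjusted p from 0.0522 to 0.0980). With 1 array left out, 14 (miR-34a 3), 19 (miR-34a 1) and 24 (miR-34a 2) of the cell division genes still passed, and 28 (vector 2), 28 (vector 3) and 35 (vector 1). By comparison the summed intensity of the 36 members was 22472 to 25021 in miR-34a arrays and 25446 to 26789 in vector arrays. The part of the fall in cell division genes in that of the repair genes was not tested.

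**Figure D4:**
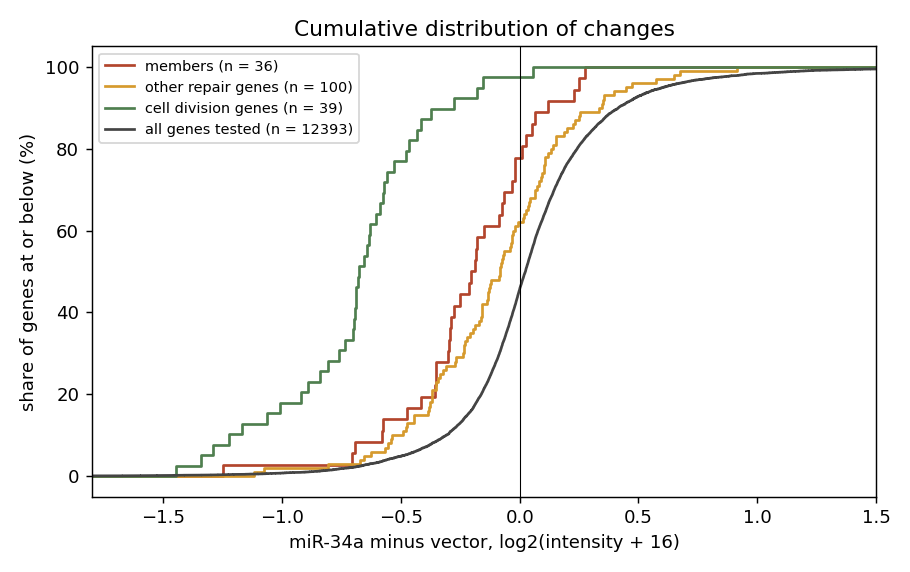
Cumulative share of genes, in percent, at or below each difference between miR-34a and vector arrays in log2(intensity + 16), for the 36 members, 100 other repair genes, 39 cell division genes and all 12393 genes. The members' curve lies left of that for all genes, with medians of -0.20 and 0.024, and the cell division curve lies farther left, with a median of -0.68.

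Of the host cell marker lists, only that of mast cells had most of its genes past the threshold, where 6.50% of all genes were higher and 5.25% lower. Mast cell genes were higher in 4 of 5, with a summed intensity of 2588 to 4091 in miR-34a arrays and 567 to 584 in vector arrays. Of 7 macrophage genes 1 was higher, with sums of 19123 to 21666 and 13239 to 17938, and of 4 neutrophil genes 1 was lower, with sums of 1709 to 1906 in miR-34a arrays and 2579 to 9265 in vector arrays. Vector 1 stood apart in both lists. Its median log2 deviation from the gene means was -0.80 for macrophage genes, against 0.09 in vector 2 and -0.18 in vector 3. For neutrophil genes it was 1.13, against 0.08 and -0.04. Of 7 fibroblast genes 0 passed, with sums of 29723 to 42467 in miR-34a arrays and 10593 to 38763 in vector arrays, the lowest being vector 1. The T and NK cell list passed in 0 of 6, with sums of 2007 to 2283 in miR-34a arrays and 1486 to 1814 in vector arrays. The B cell (0 of 3), endothelial (0 of 5), epithelial (0 of 5) and mesenchymal (0 of 4) lists held no gene past the threshold either. That does not make these lists unchanged. All fibroblast, T and NK cell and mesenchymal genes had differences above 0, with medians of 0.67, 0.31 and 0.39. Medians of the B cell, endothelial and epithelial lists were -0.10, -0.05 and 0.08, beside 0.024 for all genes. The part of these shifts in the repair gene differences was not tested.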

How the data were processed

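Per the labels, biotin-labelled cRNA from total RNA of 6 samples was read on Affymetrix mouse arrays. The deposited values are linear intensities, 1 per probe set and array, from 1 to 30253. The sources used here do not state the summarisation or normalization, and no detection calls were used. Array medians lie close together, so the values were taken as already scaled. Titles gave the groups and the replicate numbers.

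Of 22690 probe sets, the platform annotation named 1 gene for 20393, several for 691 and did not list 1606; the last 2 classes and the control probe sets, 64 in all and spread over these classes, were left out of the tests. For the 20393, the RefSeq gene table of GRCm38.p6 gave current symbols by Entrez identifier (20364 matched, 29 kept as annotated). Without the controls this left 12393 genes from 20380 probe sets, each gene by its probe set with the highest mean. Values were tested as log2(intensity + 16), which understates changes of dim genes, in R 4.3.3 with limma 3.58.1 (lmFit, eBayes), two-sided, Benjamini-Hochberg adjusted over all genes. Signed differences are miR-34a minus vector. Probe sets were also fitted together, unaveraged. All 36 measured members are named; array values are given for those past the threshold and at the ends of each pathway, 8 other repair genes are named for the largest changes past the threshold in each direction, Mki67, Top2a, Mcm5 and Pcna as markers of division (Pcna is on the other repair list), and promoters are shown for the largest falls with an entry. On simulated data for this comparison, with 200 of 12393 genes changed by 1 in log2, 83.0% were recovered with 12 other calls, and 0 calls were made with nothing changed. The simulated noise was independent between genes, with no outlying array such as vector 1. The planted change was larger than that of every lower member but Chek1. These rates therefore need not hold for the members. The members and lists were chosen with earlier results of these data known.

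Alternatives were quantile normalization, median centring, pseudocounts of 1 and 64, leaving out the lower 40% of genes by level, array weights, averaging all probe sets of a gene, a variance trend fitted robustly, a block for the replicate number, thresholds of 0.01 and 0.10, and the fits on 5 arrays. Python 3.11.15 and matplotlib 3.10.9 drew the figures.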

Additional observations from a re-analysis of the deposited data

How the results depend on the processing

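The 9 lower members kept the sign of their difference under each alternative run, and lost the call in 47 of 150 comparisons with the main setting. Over 600 comparisons of a member under an alternative with its main value, 526 kept direction and side of the threshold, 47 lost a call, 15 gained one and 12 changed sign, 0 of the last among the 9 lower members. The sign changes were all of small differences: with array weights Rad51ap1 was 0.0287, and Apex1 was -0.00546 with median centring and -0.00502 with the mean of all probe sets. In the fits that left out 1 array, Atm ran from -0.0628 to 0.101, Rad51ap1 from -0.0702 to 0.0325, Rad50 from -0.0766 to 0.0264, Apex1 from -0.0194 to 0.0596 and Ercc2 from -0.1002 to 0.0565. The cause was not tested.

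With array weights 16 members passed, 15 lower and 1, Fancc, higher, and 41 other repair genes, 32 of them lower, but the share of all genes called was then 26.1% (10.6% lower). At an adjusted p of 0.01, 1 member passed, the lower gene Chek1, with 5 other repair genes (3 lower, 2 higher) and 17 cell division genes, where 1.13% of all genes were lower. At 0.10, 11 members and 33 other repair genes passed, 11 and 26 of them lower, where 8.01% of all genes were. When each array was left out, members past the threshold, all lower, numbered 1 to 10 with 0 higher in each fit, other repair genes past the threshold 3 to 27 (3 to 21 lower, 0 to 6 higher), cell division genes 14 to 35, and the median difference of the members was -0.23 to -0.16. Each such fit has 1 array fewer. With the lower 40% of genes left out, 24 members remained in the test and 7 were lower, beside 8.89% of the genes then tested. The 12 members left out include 3 of the 9 lower ones, Chek1, Nbn and Exo1; the other 6 kept their calls and Xrcc5 gained one (adjusted p = 0.0498). The median of all genes was between 0.0083 and 0.058 over the normalization and filter alternatives.

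Deviations of same-numbered arrays from their group means correlated at -0.168, -0.0935 and -0.0812, which gave no sign of pairing by replicate number. Deviations centred within groups of 3 depend on each other, so these values cannot settle whether arrays were paired. With the replicate block 2 members passed, the lower genes Chek1 and Brca1, and 0 were higher, with 8 other repair genes (5 lower, 3 higher) and 23 cell division genes, where 2.19% of all genes were lower. Probe set levels without detection calls limit what can be said of dim genes such as Bard1.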
